A study of Mus musculus with 6 samples.

Results

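Small leucine-rich proteoglycans are secreted matrix proteins whose core is a curved stack of leucine-rich repeats. The 10 genes considered were Dcn, Bgn, Lum, Fmod, Omd, Ogn, Prelp, Aspn, Kera and Podn, chosen by name, and 9 of them were measured among the 24016 genes of the table. The expression of Kera was not analysed here. The RNA came from MC3T3-E1 subclone 4, a wild-type preosteoblast line cloned from mouse calvaria, differentiated for 6 days with ascorbic acid (50 µg/ml) and β-glycerophosphate (10 mM). Of 6 libraries, 3 received vehicle and 3 received corticosterone, the chief glucocorticoid hormone of rodents, at 100 nM for 24 h. The treatment label, which all 6 libraries share, also lists 10 nM calcitriol, the active form of vitamin D. The labels do not say whether the vehicle cells also received calcitriol. If they did not, its effect and that of corticosterone cannot be told apart. The question was how corticosterone changes gene expression in differentiated osteoblasts. All libraries are of 1 cloned line, and the study's methods describe the 3 of each group as independent biological replicates.

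The family is divided into classes by sequence and gene structure. Decorin, biglycan and asporin form class I. Lumican, fibromodulin, osteoadherin (Omd), Prelp and keratocan form class II, osteoglycin (Ogn) belongs to class III, and podocan (Podn) to a later class. Many of these proteins bind collagen fibrils and limit their lateral growth, and decorin and biglycan also bind TGF-β. Their cores carry chondroitin or dermatan sulfate, keratan sulfate or no such chain, according to the member. In bone they belong to the unmineralized and mineralized matrix laid down by osteoblasts, and osteoadherin was first isolated from bone.

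Most of these genes lie in clusters (GRCm38 with the GENCODE M21 annotation, the same assembly as the mm10 named in the labels). On chromosome 10, Dcn (chr10:97479609-97518143, plus strand) is followed by Lum (chr10:97565128-97572703, plus) after 46984 bp. On chromosome 13, Aspn (chr13:49544443-49567565, plus), Omd (chr13:49582462-49592822, plus) and Ogn (chr13:49608046-49624501, plus) are separated by 14896 and 15223 bp. Prelp (chr1:133910304-133921414, minus) and Fmod (chr1:134037254-134048277, plus) lie 115839 bp apart on opposite strands. Bgn (chrX:73483602-73495933, plus) and Podn (chr4:108014791-108096445, minus) stand alone.

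The 3 neighbours on chromosome 13 are shown by sequence because they share a strand and a cluster yet moved in different directions, as described further on. Each sequence is the 250 bases before the RefSeq start (GRCm38.p6, plus strand, 5′ to 3′). The windows are chr13:49544193-49544442 for Aspn, chr13:49582212-49582461 for Omd and chr13:49607765-49608014 for Ogn. Capitals mark matches, on either strand, to TATAAA, the core of the TATA box, or to TGTGGT, a core bound by RUNX factors.
Aspn: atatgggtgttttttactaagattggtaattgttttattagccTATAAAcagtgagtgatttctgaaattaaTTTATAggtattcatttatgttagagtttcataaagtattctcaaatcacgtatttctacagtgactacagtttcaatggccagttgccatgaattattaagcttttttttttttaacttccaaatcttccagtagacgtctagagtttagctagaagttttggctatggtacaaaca
Omd: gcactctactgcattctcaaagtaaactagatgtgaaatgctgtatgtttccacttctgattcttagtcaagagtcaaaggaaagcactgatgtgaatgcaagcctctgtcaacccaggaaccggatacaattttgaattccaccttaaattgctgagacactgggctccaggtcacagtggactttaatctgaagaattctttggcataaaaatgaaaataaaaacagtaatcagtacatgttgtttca
Ogn: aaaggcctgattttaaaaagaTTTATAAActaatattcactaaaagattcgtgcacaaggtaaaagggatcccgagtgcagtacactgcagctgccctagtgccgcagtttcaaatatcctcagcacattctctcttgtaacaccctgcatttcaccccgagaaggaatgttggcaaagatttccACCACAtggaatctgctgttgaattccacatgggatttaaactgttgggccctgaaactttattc
The Aspn window held TATAAA 207 bases and its reverse complement 178 bases before the start. The Ogn window held overlapping matches on both strands beginning 229 and 227 bases before the start, and the RUNX letters at 65 bases. The Omd window held neither. TATAAA was found in 12.4% and TGTGGT in 14.0% of all 32851 windows of this length. Whether any of these matches works as a TATA box or binds RUNX factors was not tested.

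Windows were at hand for 8 of the 10 genes, Dcn and Lum being the exceptions. None of the 8 held the palindrome that the glucocorticoid receptor binds, searched as GNACA and TGTNC with 3 bases of any kind between them, which 0.387% of all windows held. Its single-arm form, AGAACA, was found in 16.1% of all windows and, among the members, in that of Bgn, 241 bases before the start. These are matches of letters, and a window without a match says nothing of binding elsewhere.

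Read totals on genes ran from 19076586 to 25638645 with vehicle and from 16020401 to 18992332 with corticosterone, so the treated libraries were shallower. The values, written here as normalized counts, are reads divided by a size factor of each library. Tsc22d3, which encodes the glucocorticoid-induced leucine zipper, rose from 511 ± 30.6 to 1438 ± 93.3 (mean ± SD, n = 3 each, log2 fold change 1.49, limma adjusted p = 9.5e-11). Of 10 osteoblast markers, all measured, 1 rose and 7 fell at a limma adjusted p under 0.05, beside 8.49% and 8.2% of all genes. The falls included Runx2 (log2 fold change -1.16), Sp7 (-1.34) and Bglap (-1.87), and a smaller one of Col1a1 (-0.15). Spp1 rose (0.23), and Dmp1 and Phex did not pass. The summed level of the 10 went from 1357910-1404040 to 1182820-1238350. Most of this sum was Col1a1 and Col1a2, with vehicle means of 709237 and 560839. In bulk RNA, fewer cells of a type and less RNA per cell cannot be told apart.

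After corticosterone, 6 of the 9 measured members fell and 2 rose at a limma adjusted p under 0.05, and only Bgn did not pass the test. Lum fell most, to 0.264 times its level in vehicle-treated cells, followed by Omd, Fmod and Dcn. Ogn rose by 66.2% and Prelp by 12.4%. The shares of all 24016 genes past the same threshold were 8.49% higher and 8.2% lower. With an added log2 fold change over 1, 2 members were lower (Lum and Omd) and 0 were higher, beside 1.4% and 1.38% of all genes. The median log2 fold change of the members was -0.65, and that of all genes was -0.01. The 3 values with vehicle and the 3 with corticosterone did not overlap in 8 of 9 members, against 29.6% of all genes. All genes include many of low count: 13880 had a mean of at least 10, as every member did. In lists described below, groups were also apart for 16 of 20 other proteoglycan core proteins and 11 of 14 ligands and receptors. They were apart for 8 of 10 osteoblast markers, 5 of 10 proteases, 9 of 21 chondroitin and dermatan sulfate genes and 4 of 8 further family genes.

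**Figure D1:**
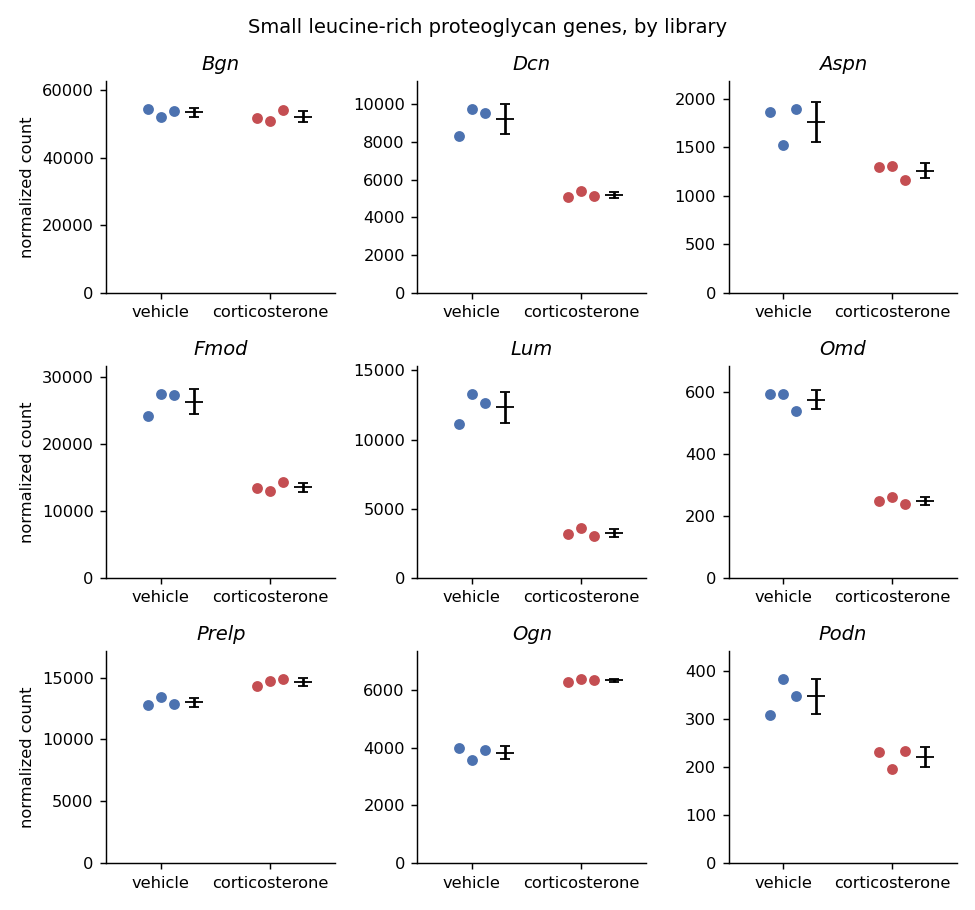
Normalized counts (vertical axes, each from 0) of the 9 measured members in the 3 vehicle (blue) and 3 corticosterone (red) libraries, with the mean and SD of each group in black. The groups are apart in 8 panels and overlap in that of Bgn, and the treated libraries are the higher ones for Ogn and Prelp.

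Among the class I genes, Bgn, which encodes biglycan, had the highest count of the family. Its normalized counts were 54601, 52032 and 53752 in vehicle replicates 1 to 3 and 51749, 50873 and 54115.5 in corticosterone replicates 1 to 3. The groups overlapped, with the highest treated library above 2 of the 3 controls. The log2 fold change was -0.03 (SE 0.039, 95% interval -0.12 to 0.05, limma adjusted p = 0.68), an interval that runs from 0.923 to 1.03 times the vehicle level. Quantile normalization gave -0.21 (adjusted p = 0.017), the 1 alternative of 16 in which Bgn passed the threshold.

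Dcn encodes decorin, the class I proteoglycan closest to biglycan. It had 8306, 9758 and 9533 normalized counts with vehicle and 5073, 5378 and 5118 with corticosterone. Every treated library lay below every control, and the treated libraries lay closer together (SD 164 against 782). Its log2 fold change was -0.82 (SE 0.053, 95% interval -0.94 to -0.71, limma adjusted p = 9.7e-09), a fall of 43.5%.

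Aspn encodes asporin, which carries a stretch of aspartate residues and binds collagen and TGF-β. Its normalized counts were 1863, 1524 and 1896 with vehicle and 1294, 1303 and 1165 with corticosterone. Vehicle replicate 2 was the lowest control but still lay above all treated libraries. On the log2 scale the change was -0.48 (SE 0.074, limma adjusted p = 1.5e-04), and without a variance trend in the fit the adjusted p was 0.095.

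The measured class II genes ran from a log2 fold change of -1.92 (Lum) to 0.17 (Prelp). Lum encodes lumican, a keratan sulfate proteoglycan that shares its binding region on collagen I with fibromodulin. It had 11119, 13312 and 12628 normalized counts with vehicle and 3176, 3565 and 3033 with corticosterone. The lowest control was far above the highest treated library. The log2 fold change of -1.92 (SE 0.064, 95% interval -2.06 to -1.79, limma adjusted p = 3.8e-12) is a 3.79-fold lower level. Among the 4315 genes with a mean normalized count of at least 1000, 2 had a lower log2 fold change. The value stayed between -2.0 and -1.87 in all 16 alternatives and passed both thresholds in each.

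Fmod encodes fibromodulin. Its normalized counts were 24189, 27471 and 27235.5 with vehicle and 13339, 12997.5 and 14295 with corticosterone, with a wide gap between the groups. The log2 fold change was -0.96 (SE 0.050, 95% interval -1.06 to -0.85, limma adjusted p = 8.4e-10), so that the level fell by 48.5% and stopped just short of the fold threshold. It went past that threshold under quantile normalization (-1.06), under upper-quartile scaling (-1.02) and without vehicle replicate 1 (-1.02). Of the genes with a mean of at least 1000, 25 had a lower log2 fold change than Fmod.

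Omd encodes osteoadherin, a keratan sulfate proteoglycan that binds osteoblasts through an integrin. It had 593, 590.4 and 538 normalized counts with vehicle and 246, 259.6 and 237 with corticosterone. The spread within each group was small beside the gap, at SDs of 31.0 and 11.5. Its log2 fold change was -1.21 (SE 0.077, 95% interval -1.38 to -1.05, limma adjusted p = 7.7e-09), a 2.32-fold lower level, and it passed both thresholds in all 16 alternatives.

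Prelp, an arginine- and proline-rich member that binds heparan sulfate and collagen, went the other way. Its normalized counts were 12777, 13433.5 and 12819 with vehicle and 14278, 14710.5 and 14889.7 with corticosterone. The groups were close but did not overlap. A log2 fold change of 0.17 was fitted (SE 0.038, 95% interval 0.09 to 0.25, limma adjusted p = 0.0044). The call was lost in 4 of 16 alternatives, with adjusted p = 0.053 without vehicle replicate 3, 0.19 without a variance trend, 0.22 with upper-quartile scaling and 0.52 with quantile normalization, where the log2 fold change was 0.05.

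Ogn, the class III gene, encodes osteoglycin, also called mimecan, a secreted protein of bone and other connective tissues. It had 3974, 3558 and 3915 normalized counts with vehicle and 6286, 6383 and 6340.2 with corticosterone. All treated libraries were above all controls, and they differed little from one another (SD 48.6). The log2 fold change was 0.73 (SE 0.045, 95% interval 0.64 to 0.83, limma adjusted p = 5.6e-09), or 1.66 times the vehicle level. It stayed between 0.66 and 0.76 in the 16 alternatives. Of the 4315 genes with a mean of at least 1000, 124 had a higher log2 fold change.

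Podn encodes podocan, a collagen-binding member that was the least abundant of those measured. It had 309, 384 and 349 normalized counts with vehicle and 231, 197 and 233 with corticosterone. The groups did not overlap. Its log2 fold change was -0.65 (SE 0.101, 95% interval -0.87 to -0.44, limma adjusted p = 1.7e-04), with an adjusted p of 0.050 without a variance trend. The 6 libraries held between 178 and 497 reads of Podn, and its SE was the widest of the 9.

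**Figure D2:**
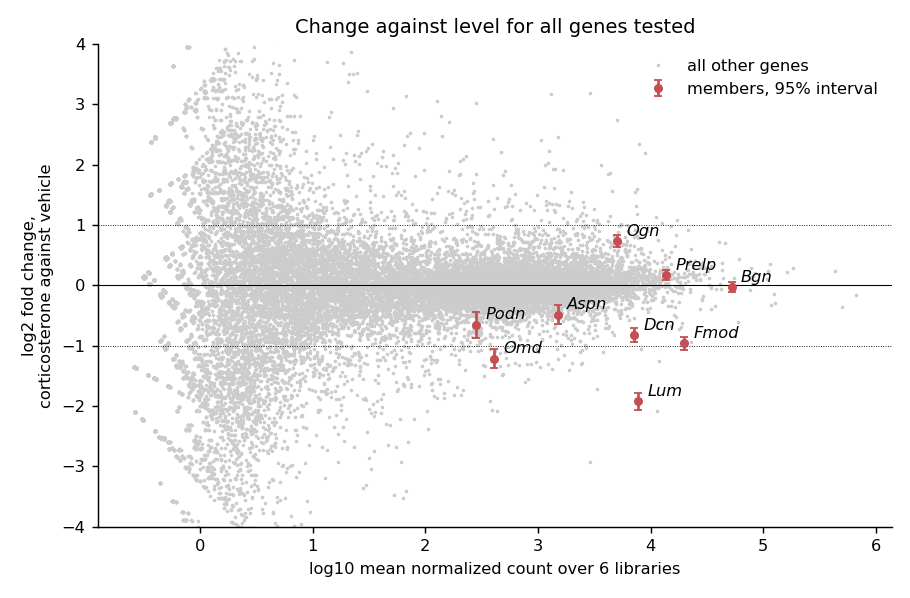
Log2 fold change of corticosterone against vehicle (vertical axis) against the log10 mean normalized count over 6 libraries (horizontal axis) for all genes (grey) and the 9 members (red, with 95% intervals). Dotted lines mark 1 and -1, and 196 genes lie outside the vertical range. Lum stands near -1.92 among genes of high count, Omd lies below -1, and Ogn is the highest member.

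To compare levels between genes, the counts were divided by the length of each gene's merged exons. With vehicle the order of the normalized count per kb was Bgn (8766 ± 215, SD, n = 3), Fmod (7955 ± 554), Lum (5046 ± 458), Prelp (3599 ± 102), Dcn (1576 ± 134), Ogn (1487 ± 87.7), Aspn (748 ± 87.3), Omd (255 ± 13.8) and Podn (81.3 ± 8.75). Dcn and Ogn overlapped, at 1423 to 1671 and 1387 to 1549 per kb, and the other neighbours in this order did not. With corticosterone the order was Bgn (8566 ± 275), Fmod (4097 ± 203), Prelp (4046 ± 87.0), Ogn (2469 ± 18.9), Lum (1331 ± 113), Dcn (889 ± 28.2), Aspn (533 ± 32.8), Omd (110.04 ± 5.11) and Podn (51.6 ± 4.80). Here Fmod (3931 to 4324) and Prelp (3950 to 4119) overlapped. With the longest transcript as the length the order was the same, and neither of these pairs overlapped. Ogn was thus below Lum with vehicle and above both Lum and Dcn with corticosterone.

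The summed normalized count per kb of the 9 members fell by 25.1%, from 29512 ± 925 to 22093 ± 407. As shares of this sum, Bgn went from 29.7% ± 1.58 to 38.8% ± 0.656, Fmod from 26.9% ± 1.05 to 18.5% ± 0.618, and Lum from 17.1% ± 1.07 to 6.03% ± 0.579. Prelp went from 12.2% ± 0.343 to 18.3% ± 0.227, and Ogn from 5.05% ± 0.416 to 11.2% ± 0.203. Dcn took 5.33% ± 0.294 and then 4.02% ± 0.161. The remaining 3 were small in both groups, with Aspn at 2.54% and 2.41%, Omd at 0.865% and 0.498%, and Podn at 0.275% and 0.233%. A share depends on the length used: with the longest transcript of each gene, Bgn took 48.1% and 58.3%, since its merged exons (6099 bp) are longer than its longest transcript (2666 bp). The sum then fell by 19.4%.

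**Figure D3:**
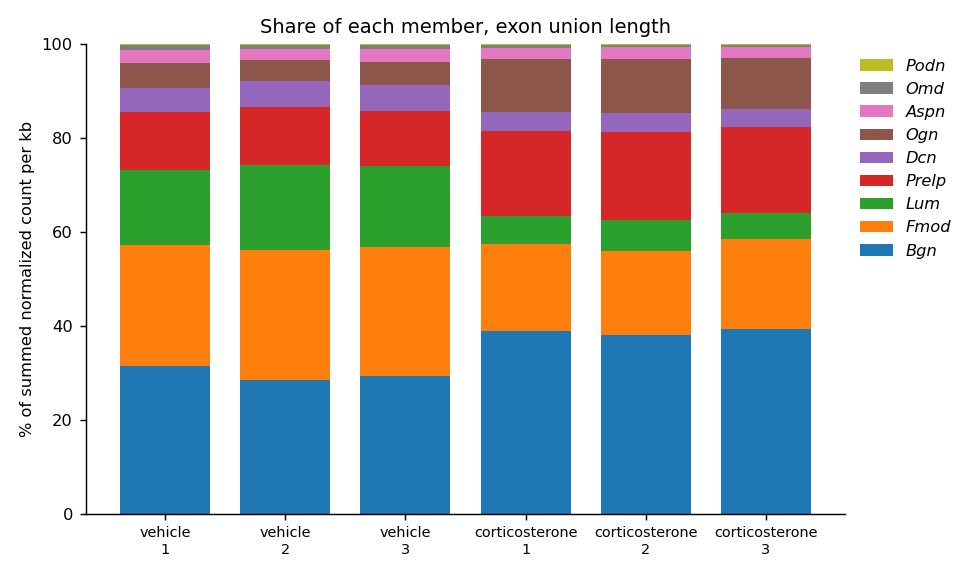
Share of each member in the summed normalized count per kb of exon union (vertical axis, percent) in each of the 6 libraries, stacked to 100%. The Lum share drops from a mean of 17.1% to 6.03% and the Ogn share grows from 5.05% to 11.2%, with little difference between replicates.

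Ratios of related members within a library do not change with the scaling of that library. They are ratios of counts not divided by length, so that only their change between the groups is read here, and not which gene of a pair was the higher. The ratio of Dcn to Lum, neighbours on chromosome 10, was 0.747, 0.733 and 0.755 with vehicle and 1.6, 1.51 and 1.69 with corticosterone. Every treated library was above every control. Per kb, Lum stayed above Dcn in all 6 libraries. The mean log2 ratio moved by 1.10, or 2.14-fold.

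On chromosome 13, Omd and Ogn moved apart. Their ratio was 0.149, 0.166 and 0.137 with vehicle and 0.0392, 0.0407 and 0.0373 with corticosterone, a 3.85-fold lower ratio. The ratio of Ogn to Aspn, at the other end of the cluster, was 2.13, 2.33 and 2.06 and then 4.86, 4.90 and 5.44, which is 2.33-fold higher.

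The ratio of Fmod to Prelp was 1.89, 2.04 and 2.12 with vehicle and 0.934, 0.884 and 0.960 with corticosterone, with every treated library below every control. Per kb, the treated levels of this pair overlapped. The ratio of the class I pair Dcn and Bgn was 0.152, 0.188 and 0.177 and then 0.0980, 0.106 and 0.0946. In each of these 5 pairs the groups did not overlap. The two-sided exact permutation p of each was 0.1 (0.1 after Benjamini-Hochberg adjustment over the 5), the smallest that 3 against 3 allows, so this test could not pass 0.05.

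**Figure D4:**
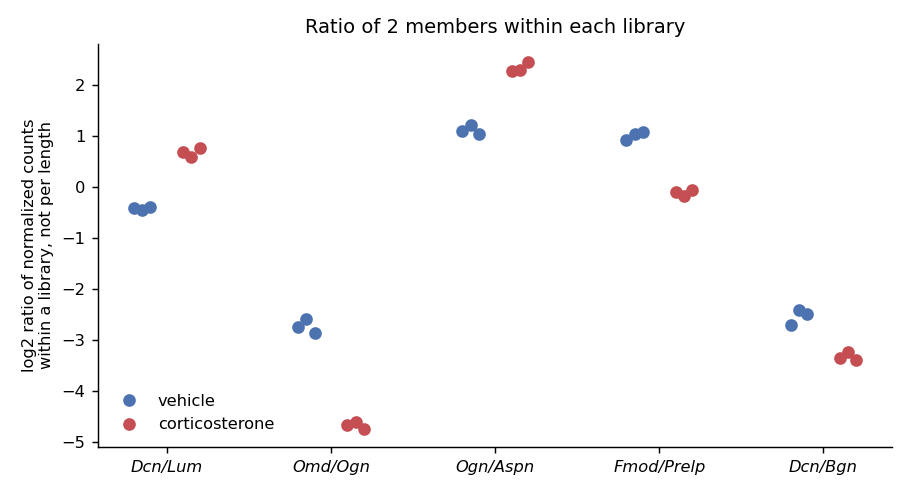
Log2 ratio of the normalized counts of 2 members within a library (vertical axis) for 5 pairs, in 3 vehicle (blue) and 3 corticosterone (red) libraries. The counts are not divided by length, and the groups are apart in each pair, with Omd to Ogn moving furthest (3.85-fold lower).

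Some annotated genes share ground with the members, and whether the counting used the strand is not given in the sources used here. Cenpp, a centromere protein gene (chr13:49464023-49652785, minus strand), spans Aspn, Omd and Ogn, and its exons overlap those of Aspn. It had 59.6 ± 10.96 normalized counts with vehicle and 49.5 ± 9.04 with corticosterone (log2 fold change -0.27, limma adjusted p = 0.49). Gm15851, an antisense RNA over the exons of Prelp, had 1 to 6 reads in each library, against 11639 to 17405 for Prelp. Scp2, a sterol carrier protein gene that shares strand and ground with Podn but no exon, was at 840.4 ± 65.0 and 852 ± 24.5 (log2 fold change 0.02, adjusted p = 0.88).

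Of 9 further family genes, 8 were measured, and 3 fell, 0 rose and 5 did not pass at a limma adjusted p under 0.05, with a median log2 fold change of -0.18. For this list and those that follow, the shares of all genes past that threshold were 8.49% higher and 8.2% lower. All 3 calls were lost without a variance trend (limma adjusted p of 0.050 to 0.12). Tsku (tsukushi) went from 502 ± 30.6 to 388 ± 5.53 normalized counts (log2 fold change -0.37, limma adjusted p = 0.0014). Chadl, a chondroadherin-like gene, went from 91.7 ± 14.5 to 57.2 ± 8.36 (-0.68, adjusted p = 0.016). Ecm2, the neighbour of Aspn at a distance of 11653 bp, went from 177 ± 7.33 to 135 ± 14.7 (-0.39, adjusted p = 0.029). The call of Chadl was lost without corticosterone replicate 2 or 3 or vehicle replicate 2 or 3 (limma adjusted p up to 0.12), and that of Ecm2 without any 1 library other than corticosterone replicate 2 (up to 0.14) and with DESeq2 on the recovered reads (0.080). Optc, 2304 bp from Prelp on the same strand, was at 40.8 ± 7.09 and 41.0 ± 6.92 (log2 fold change 0.01, adjusted p = 0.99). Epyc, beyond Kera on chromosome 10, had 0 to 5 reads with vehicle and 0 with corticosterone.

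The chains on these proteins are built by enzymes of the Golgi. Of 22 genes for the linker and for chondroitin and dermatan sulfate, 21 were measured, 2 rose, 1 fell and 18 did not pass, with a median of -0.03. These counts are near the shares of all genes. Chpf2, a chondroitin polymerizing factor, rose by 0.22 and Dse, the epimerase that turns chondroitin into dermatan sulfate, by 0.20 on the log2 scale (limma adjusted p = 0.0011 and 0.0026), while Chsy1, a chondroitin synthase, fell by 0.35 (4.0e-04). All 3 calls were lost without a variance trend, and 5 genes of this list were lower under upper-quartile scaling or scaling to the same total.

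Of 10 genes for keratan sulfate synthesis and tyrosine sulfation, 8 were measured, 2 rose and 2 fell. Chst2, a sulfotransferase for N-acetylglucosamine, fell from 3231 ± 328 to 1859 ± 19.5 normalized counts (log2 fold change -0.79, SE 0.059). Tpst2, a tyrosylprotein sulfotransferase, rose from 2146 ± 66.9 to 3616 ± 270.3 (0.75, SE 0.053). Both passed the adjusted p in all 16 alternatives. Tpst1, the other tyrosylprotein sulfotransferase of the list, was lower (log2 fold change -0.21, limma adjusted p = 0.0053). B4galt1, a galactosyltransferase, rose by 0.22 (limma adjusted p = 0.0013), a call lost in 2 alternatives.

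Of 15 genes for ligands and receptors that members of the family bind, 14 were measured, 6 rose and 3 fell, with a median of 0.18. Ccn2, a matricellular growth factor bound by decorin, rose from 996 ± 53.2 to 2904 ± 85.1 normalized counts (log2 fold change 1.54, SE 0.051). It was the 1 gene of the list past both thresholds. Lrp1, an endocytic receptor for decorin, rose from 30758 ± 924 to 50577.5 ± 1004 (0.72, SE 0.038). Tgfb2 fell from 758 ± 103 to 427 ± 35.0 (-0.82, SE 0.091).

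All 10 proteases and protease partners listed as acting on these proteins were measured, and 2 rose and 2 fell. Adamts4, an aggrecanase that also cleaves several family members, fell from 1371 ± 117 to 634 ± 51.6 normalized counts (log2 fold change -1.11, SE 0.072) and passed both thresholds in all 16 alternatives. Pcolce, an enhancer of procollagen C-proteinase, fell by 0.34 (limma adjusted p = 1.4e-05, but 0.053 without a variance trend). Mmp14, a membrane-bound metalloproteinase, rose by 0.22 (0.0096), a call lost in 6 of 16 alternatives, among them those without corticosterone replicate 2 or 3 and vehicle replicate 1 or 3 (adjusted p 0.081 to 0.15).

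Among 24 core proteins of other proteoglycan families, 20 were measured, 6 rose and 7 fell, with a median of -0.08. Spock2, a testican, rose from 4601 ± 173 to 10443 ± 530 normalized counts (log2 fold change 1.18, SE 0.045). Tgfbr3 (betaglycan) rose from 3499 ± 73.9 to 6939.7 ± 141 (0.99, SE 0.040). Of the genes that fell, Sdc3, Sdc2 and Gpc1 were at -0.91, -0.84 and -0.82 (limma adjusted p = 6.3e-09, 9.2e-10 and 1.3e-08). Other syndecan and glypican genes did not follow them. Sdc1, Sdc4 and Gpc4 rose, at 0.59, 0.49 and 0.54 (limma adjusted p = 2.1e-08, 1.7e-06 and 1.5e-08), and Gpc6 did not pass (0.99). Gpc3, a glypican, passed both thresholds on 2 to 5 reads with vehicle and 0 with corticosterone, too few for a fold, and its call was lost without any single control or without corticosterone replicate 1 (limma adjusted p 0.050 to 0.11).

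**Figure D5:**
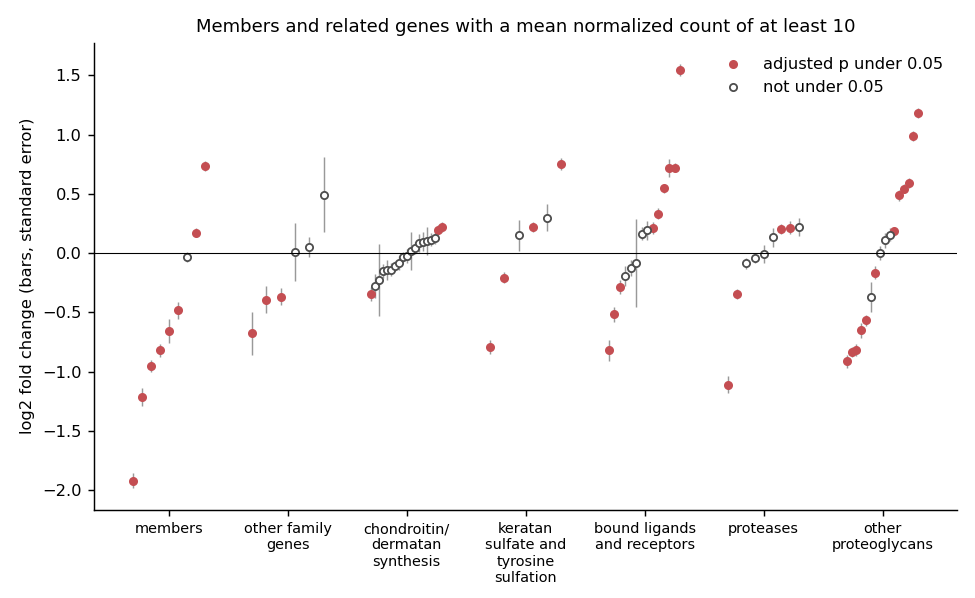
Log2 fold change of corticosterone against vehicle (vertical axis, bars show the standard error) for the 9 members and 6 lists of related genes with a mean normalized count of at least 10, filled where the limma adjusted p was under 0.05. Lum is the lowest point at -1.92, Ccn2 the highest at 1.54, and the 19 chondroitin and dermatan sulfate genes lie close to 0.

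Markers of other cell types were read beside the members. Of 3 tenocyte markers, all measured, Scx fell (log2 fold change -1.62, limma adjusted p = 5.9e-05), Mkx was at -0.03, and Tnmd had at most 1 read in any library. Their summed level was 240.02 to 366 with vehicle and 171 to 198 with corticosterone. Of 7 chondrocyte markers, 5 were measured, Col2a1 (-0.80) and Sox9 (-0.16) fell, Matn1 had at most 2 reads, and the sum went from 3589-3994 to 2952-3019. Of 3 keratocyte markers, 2 were measured, Aldh3a1 fell by 0.89, Ptgds had at most 1 read, and the sum went from 107-130.4 to 57.8-78.0. Of 5 adipocyte markers, 3 were measured, Fabp4 rose (3.14), Cebpa fell (-0.69), Plin1 had at most 2 reads, and the sum was 302-403 and then 320.3-322. Their part in the changes of the proteoglycans was not tested.

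For 5 myeloid markers, 3 were measured and 1, Lyz2, fell by 0.37 on the log2 scale (limma adjusted p = 0.020), with sums of 262 to 300.03 with vehicle and 214 to 239 with corticosterone. None of the measured endothelial markers (2 of 4) and muscle markers (2 of 4) passed the test, and the endothelial sum was at most 12.8 normalized counts in any library.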

How the data were processed

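The 6 RNA-seq libraries were of differentiated MC3T3-E1 cells, 3 per treatment. RNA was isolated on columns, prepared with a NEBNext Ultra kit and sequenced on an Illumina platform. The labels name mm10. The aligner, the counting program and the use of strand are not given in the sources used here. A single table of signal by gene and library was deposited, under the name FPKM. In each library 100% of the values were whole multiples of 1 step (within 0.01 reads) that did not depend on gene length, so the deposited signal is read counts divided by a size factor. Lengths therefore had to be divided out for levels between genes. Fold changes do not need this. A gene with 3 reads has a normalized count of 2.32 to 3.84, a floor that covers counting error only. Values of the authors' own DESeq2 comparison were not used.

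Treatments were compared with limma 3.58.1 under R 4.3.3, fitting log2(value + 0.1) with a trended variance prior. A minimum mean of 0.1 removed none of 24016 genes, and p-values were adjusted by Benjamini-Hochberg over all of them. Fold changes are on this scale, and for genes with few reads they can differ from the change of the means or reverse it. Tek, for example, had means of 1.60 with vehicle and 2.56 with corticosterone but a fitted log2 fold change of -0.94. The thresholds were an adjusted p under 0.05 and, where stated, an absolute log2 fold change over 1. This test had been planned for FPKM and was not replaced. For ratios a two-sided exact permutation test was used. The 16 alternatives were a pseudocount of 1, a mean of at least 10, no filter, a replicate block, no variance trend, upper-quartile, total and quantile scaling, edgeR 4.0.16 and DESeq2 1.42.0 on the recovered reads, and leaving out each library. The fits were tested on simulated data. No 2 libraries agreed within counting noise (chi-square per degree of freedom of at least 3.38).

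The members and the gene lists were chosen with earlier results of these data known. The genes named are all members and the genes that overlap them or lie in their clusters. From each list they are those past both thresholds and the 3 with the largest log2 fold change among those with an adjusted p under 0.05. Runx2, Sp7 and Bglap were named for osteoblasts. Further osteoblast markers and Tpst1 were named after their values were seen. So were Sdc1, Sdc2, Sdc3, Sdc4, Gpc1, Gpc4 and Gpc6 among other proteoglycans. Markers of other cell types were named after their values were seen. Of the identifiers, 24008 matched the annotation. Positions came from GENCODE M21 and promoter windows from RefSeq (GRCm38.p6). Python 3.11.15 with pandas 2.3.3 and matplotlib 3.10.9 served for tables and plots.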

Additional observations from a re-analysis of the deposited data

How the results depend on the processing

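The direction of every member held in all 16 alternatives. Lum and Omd passed both thresholds in each, and the count of lower members was 6 in every alternative but 2, with 4 without a variance trend (Aspn and Podn lost) and 7 with quantile normalization (Bgn added). The count of members higher at an adjusted p under 0.05 was 1 in place of 2 without a variance trend, with quantile normalization and with upper-quartile scaling, and 1 to 2 when 1 library was left out (1 without vehicle replicate 3). Without a variance trend the other family genes had 0 lower, the chondroitin and dermatan sulfate list 0 higher, the keratan sulfate list 1 higher and 1 lower, and the proteases 0 higher and 1 lower. With upper-quartile scaling these were 1 higher and 5 lower (chondroitin and dermatan sulfate), 1 higher (keratan sulfate) and 0 higher (proteases). The chondroitin and dermatan sulfate list had 5 lower with scaling to the same total and 2 with quantile normalization. When 1 library was left out, the counts ran from 1 to 2 lower for other family genes (1 without corticosterone replicate 3 or vehicle replicate 2), 1 to 3 lower for chondroitin and dermatan sulfate (3 without vehicle replicate 2), 1 to 2 lower for keratan sulfate (1 without vehicle replicate 3) and 1 to 2 higher for proteases (1 without corticosterone replicate 2 or 3 or vehicle replicate 3). Over all genes, 204 to 321 were lower past both thresholds, with 220.0 without vehicle replicate 2 and 204 without vehicle replicate 3, against 337 with all libraries. Other settings that kept all libraries also gave fewer than the 331 higher and 337 lower of the main fit. DESeq2 gave 269 higher and 245 lower, edgeR 283 and 271, and a mean of at least 10 gave 278 and 267. The cause of these differences was not tested.

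Replicate numbers are shared by the groups, but the deviations of same-numbered libraries did not correlate (-0.0438, 0.00136 and 0.0234 over 13880 genes). With the replicate block, 297 genes were higher and 294 lower, and the block changed no call among the members, with an adjusted p of 0.0055 for Prelp.

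With the longest transcript in place of merged exons, the shares with vehicle and then corticosterone were 48.1% and 58.3% for Bgn, 20.2% and 12.9% for Fmod, 12.1% and 3.97% for Lum, 8.64% and 12.0% for Prelp, 4.70% and 3.29% for Dcn, 3.57% and 7.35% for Ogn, 1.82% and 1.605% for Aspn, 0.612% and 0.328% for Omd, and 0.229% and 0.180% for Podn. The order of the members was the same under both lengths. Depth limits Podn most among the members, at 178 to 497 reads, and the treated libraries were the shallower ones throughout.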
